A study of Mus musculus with 12 samples.

Results

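The potassium channel genes of the heart were compared between mice with and without the complex II assembly factor SDHAF4 in striated muscle. The members are the rows of the deposited table whose gene name begins with Kcn and whose mean over the 12 libraries is at least 10 counts, which gave 45 of 92 Kcn rows in a table of 43686 rows. The mean count chose the members, so their being expressed is not a finding. Kcne3 (mean 8.67 counts), Kcnh1 (8.25) and Kcnh7 (8.0) lay just under that minimum, and Kcng4 (10.8), Kcnab3 (12.2) and Kcnn4 (12.5) just over it. Of the 47 Kcn rows left out, 8 had no count in any library.

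RNA from the ventricular wall was sequenced in 6 control samples (WT) and 6 mutant samples (KO), all from mice on a C57BL/6 background and 2 months old by their labels. The WT mice carried 2 floxed Sdhaf4 alleles and no Cre, and the KO mice carried the same alleles with Ckmm-Cre, a recombinase expressed from the promoter of muscle creatine kinase, which acts in cardiac and skeletal muscle. Cells of the heart wall other than cardiomyocytes are not the target of this Cre. The labels call the mutants Sdhaf4-/- and name no Cre, and the study's text gives another age beside that of the labels. The legend of the study's RNA-seq figure names left ventricles of WT and mutant mice, with n = 6. It does not say outright that 1 library was made per mouse, so the p-values measure the spread between these libraries.

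Potassium channels let potassium ions leave the cardiomyocyte and so end each action potential. Voltage-gated transient outward and delayed rectifier channels open after the upstroke, inward rectifiers hold the resting potential, two-pore channels carry a background current, and calcium- or sodium-activated channels open with the ion they sense. Auxiliary subunits bind the pore-forming proteins and set how many channels reach the membrane and how fast they open and close. In the adult mouse ventricle, repolarization rests on the fast transient outward current of Kcnd2, Kcnd3 and Kcnip2 together with sustained currents such as that of Kcna5, while in larger mammals Kcnh2 and Kcnq1 carry a greater share. Failing hearts are known for losing transient outward current. The study recorded surface electrocardiograms of these mutants, with QT and QTc among the parameters, and reported no significant abnormality in them. The values below are levels of mRNA, not currents.

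Every pore-forming potassium channel shares a short selectivity filter, and its codons show how the members of each class are built. All 45 members were matched by symbol to a coding sequence in the GENCODE annotation of the GRCm38 assembly. A filter of 5 residues (Ser or Thr, a hydrophobic residue, Gly or Glu, then Tyr, Phe or Leu, then Gly) was found once in 29 of the 34 pore-forming members and 2 times in each of the 5 two-pore members. Among the 11 auxiliary members, 8 had none, and the 3 that had 1 are Kcng2, Kcng4 and Kcnv2, the silent subunits, which are built like a voltage-gated channel but open only in a complex with a conducting partner. Printed here are pore-forming members of 3 classes that fell, Kcnh2, whose filter reads Phe in place of Tyr, and Kcnv2, which had the largest fold change of the 45. The 15 bases of the filter are in capitals, with 15 coding bases on either side, 5′ to 3′ on the coding strand.
Kcnh2 (chr5:24325540-24325584, minus strand, exon 7): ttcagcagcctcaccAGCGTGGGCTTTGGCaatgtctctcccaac
Kcnj3 (chr2:55437612-55437656, plus strand, exon 2): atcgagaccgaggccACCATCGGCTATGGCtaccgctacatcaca
Kcnj5 (chr9:32322544-32322588, minus strand, exon 3): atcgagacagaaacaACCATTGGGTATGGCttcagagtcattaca
Kcnk3, first filter (chr5:30588578-30621913, plus strand, across an intron): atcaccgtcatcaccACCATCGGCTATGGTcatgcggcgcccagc
Kcnk3, second filter (chr5:30622187-30622231, plus strand, exon 2): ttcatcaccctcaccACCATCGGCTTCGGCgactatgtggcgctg
Kcnn1 (chr8:70850642-70850686, minus strand, exon 5): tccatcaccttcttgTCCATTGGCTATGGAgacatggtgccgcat
Kcnv2 (chr19:27324155-27333683, plus strand, across an intron): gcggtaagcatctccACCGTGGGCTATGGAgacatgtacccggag
The fourth filter codon reads Tyr in the members above other than Kcnh2 and the second filter of Kcnk3, where it reads Phe. Phe is not particular to these, since Kcnj8, Kcnj11, Kcnt1, Kcnt2, Kcnk2 and Kcnk13, not printed here, also have it.

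Sdhaf4 itself, the deleted gene, had 14.3, 26.7 and 30.3 CPM (counts per library total, after that total was scaled by edgeR's TMM factor) as the lowest, median and highest of the 6 WT libraries, and 2.25, 2.35 and 2.73 CPM in the KO libraries. The groups did not overlap, with a log2 fold change of -3.39 (SE 0.16, adjusted p = 1.95e-10, exact two-sided permutation p = 0.0022, the smallest that 6 against 6 allows). Library totals ran from 23747014 to 27159228 counts in WT and from 26542930 to 31393393 in KO, and after the TMM scaling 1 CPM is 23.6 to 31.1 counts. The 45 members took 0.127% to 0.137% of the counts in WT and 0.0965% to 0.105% in KO.

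The summed level of the members was lower in the KO hearts. Over all members the sum was 1277, 1316 and 1345 CPM (lowest, median and highest) in WT and 950, 1003 and 1074 CPM in KO, with no overlap. Abundant genes weigh most in a sum, such as Kcnk3 with medians of 322 CPM in WT and 233 CPM in KO. The fall was not shared by all members, since 20 of the 45 had a positive log2 fold change and the median was -0.07. The 34 pore-forming members alone, summed per length as deposited FPKM (fragments scaled for gene length and library size), gave 391.6, 407 and 435 in WT and 319, 326 and 339 in KO. Beside this, 9 cardiomyocyte markers together spanned 49276 to 54347 CPM in WT and 41686 to 57040 CPM in KO. Of the 9, 4 were lower (44.4%, against 25.5% of all rows tested). In a bulk sample, fewer cells of a type and less RNA per cell cannot be told apart.

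All 45 members passed the filter on low counts, and 26 of them (57.8%) passed an adjusted p of 0.05 in edgeR, against 51.1% of the 17155 rows tested. Of the members 11 were higher (24.4%, against 25.6% of all rows) and 15 lower (33.3%, against 25.5%), and 19 did not pass. With the study's own thresholds, an adjusted p of 0.005 and a log2 fold change of 1, 4 members were higher (8.89%, against 5.36%) and 10 lower (22.2%, against 4.87%). The 6 libraries of each group did not overlap for 15 members (33.3%, against 30.1% of all rows), with KO below WT in 12 and above in 3. The share called in either direction and the share without overlap thus lay near those of all rows, whereas the share lower past both thresholds lay above its background, a difference that was not tested. The median log2 fold change was -0.07, beside 0.00 over all rows.

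**Figure D1:**
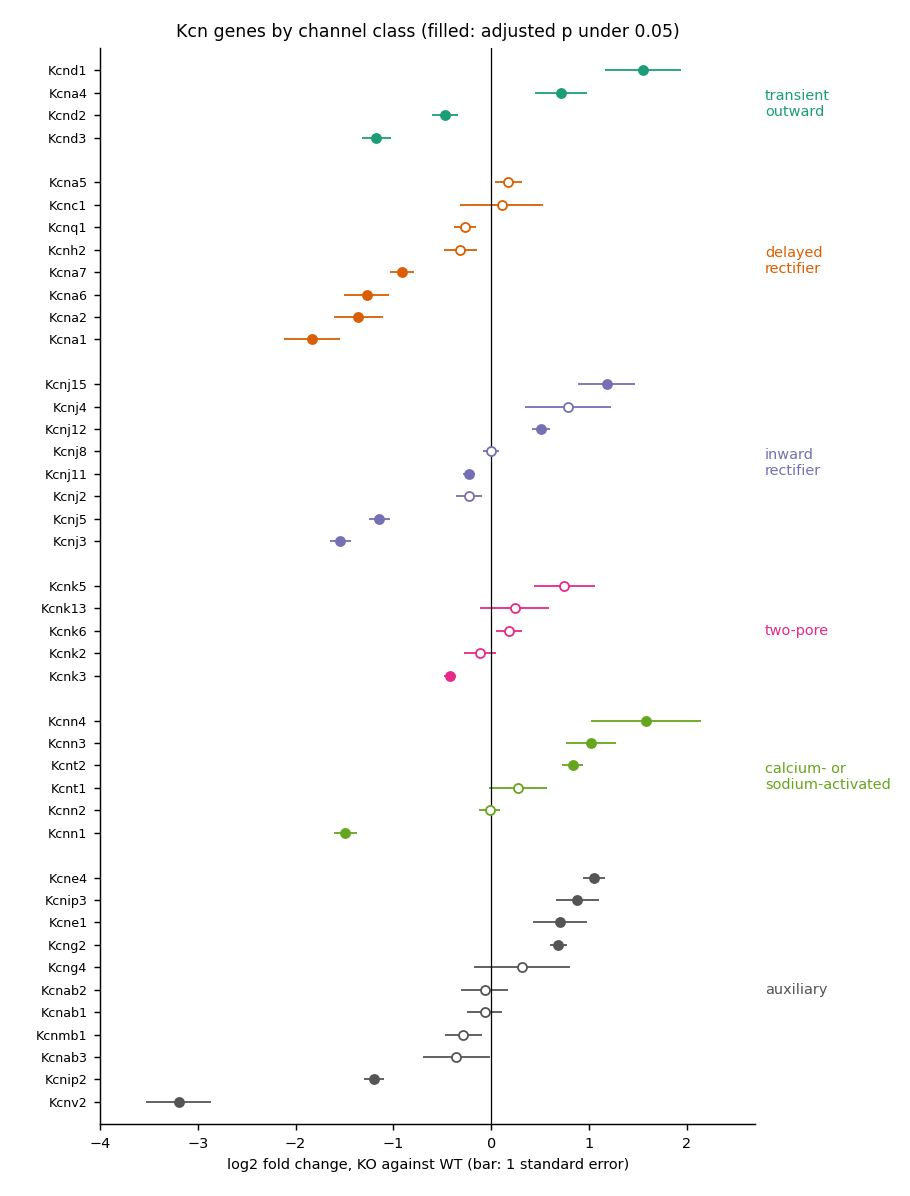
Each point is 1 of 42 of the 45 Kcn genes, placed by its log2 fold change of KO against WT (horizontal axis, edgeR, n = 6 per group) with a bar of 1 standard error; genes are grouped by channel class and filled where the adjusted p is under 0.05. The delayed rectifier genes shown lie between 0.17 for Kcna5 and -1.83 for Kcna1, and the widest spread is among auxiliary subunits, from 1.05 for Kcne4 to -3.20 for Kcnv2.

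Delayed rectifier genes included 6 lower and 0 higher of 11 (5 not passed, median log2 fold change -0.89). The 6 were 6 to 8 under the other fits, and 4 past the study's thresholds, and Kcna5 was called higher in 1 fit, without WT replicate 6. The transient outward class split into 2 higher and 2 lower of 4, the inward rectifiers into 2 higher and 3 lower of 8 (median -0.12), and the two-pore channels into 0 higher and 1 lower of 5 (median 0.18). Calcium- or sodium-activated channels were 3 higher and 1 lower of 6 (median 0.55), and auxiliary subunits 4 higher and 2 lower of 11 (median -0.07). The medians of the transient outward (0.12) and two-pore classes turned negative with a filter of at least 1 CPM in 6 libraries (-0.47 and -0.11), and that of the auxiliary subunits turned positive when 1 of 3 libraries was left out. The shares of all rows tested were 25.6% higher and 25.5% lower, which is the background for these counts. Differences between classes, and between a class and these shares, were not tested. The members called higher were mostly of low level, with 8 of 11 under 5 CPM in WT, whereas 12 of the 15 called lower were over 5 CPM.

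Kcnd3, which with Kcnd2 forms the pore of the fast transient outward current, had 17.4, 20.5 and 28.3 CPM as lowest, median and highest in WT and 7.35, 8.66 and 12.5 CPM in KO. Every KO library was under every WT library, a fall to 0.443 of the WT level (95% interval 0.361 to 0.543, log2 fold change -1.17, adjusted p = 1.03e-05). Kcnd2 fell less, from 15.3, 17.9 and 22.8 CPM to 11.1, 13.1 and 17.9 CPM, and the groups overlapped through KO replicate 3 (log2 fold change -0.47 ± 0.13 SE, adjusted p = 0.0073). The other members of the class went up. Kcna4, whose channels recover slowly and carry the slow transient outward current, rose from 2.12 ± 0.94 to 3.49 ± 1.02 CPM (SD, n = 6; adjusted p = 0.0351), a call that was lost when any 1 of 9 libraries was left out. Kcnd1, a close relative of Kcnd2 and Kcnd3, rose from 0.296 ± 0.147 to 0.874 ± 0.306 CPM (adjusted p = 0.0028) and stayed the lowest in level of the class. The summed FPKM share of the class in the pore-forming members was 2.37% to 3.20% in WT and 1.71% to 2.71% in KO, which overlap.

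Kcnip2 encodes the calcium-binding partner that brings Kcnd2 and Kcnd3 to the surface. It was the most abundant member per length in WT, at a median of 182 FPKM, and behind Kcnk3 and Kcng2 in KO, at 83.4 FPKM. Its libraries read 209, 230 and 272 CPM in WT (lowest, median, highest) and 79.2, 102 and 123 CPM in KO, a log2 fold change of -1.20 ± 0.10 (SE, adjusted p = 1.7e-07), with no overlap. The ratio of Kcnip2 to the sum of Kcnd2 and Kcnd3 by FPKM overlapped between groups, at 14.7 to 19.9 in WT and 9.75 to 20.4 in KO. Kcnip3, a relative of Kcnip2 that also acts in the nucleus, moved the other way, from 2.33 ± 0.62 to 4.29 ± 1.11 CPM (adjusted p = 0.0026); it falls outside the rule for named genes and was chosen after its values were seen, as were Kcna7, Kcnt2, Kcng2 and Kcnn4 below.

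**Figure D2:**
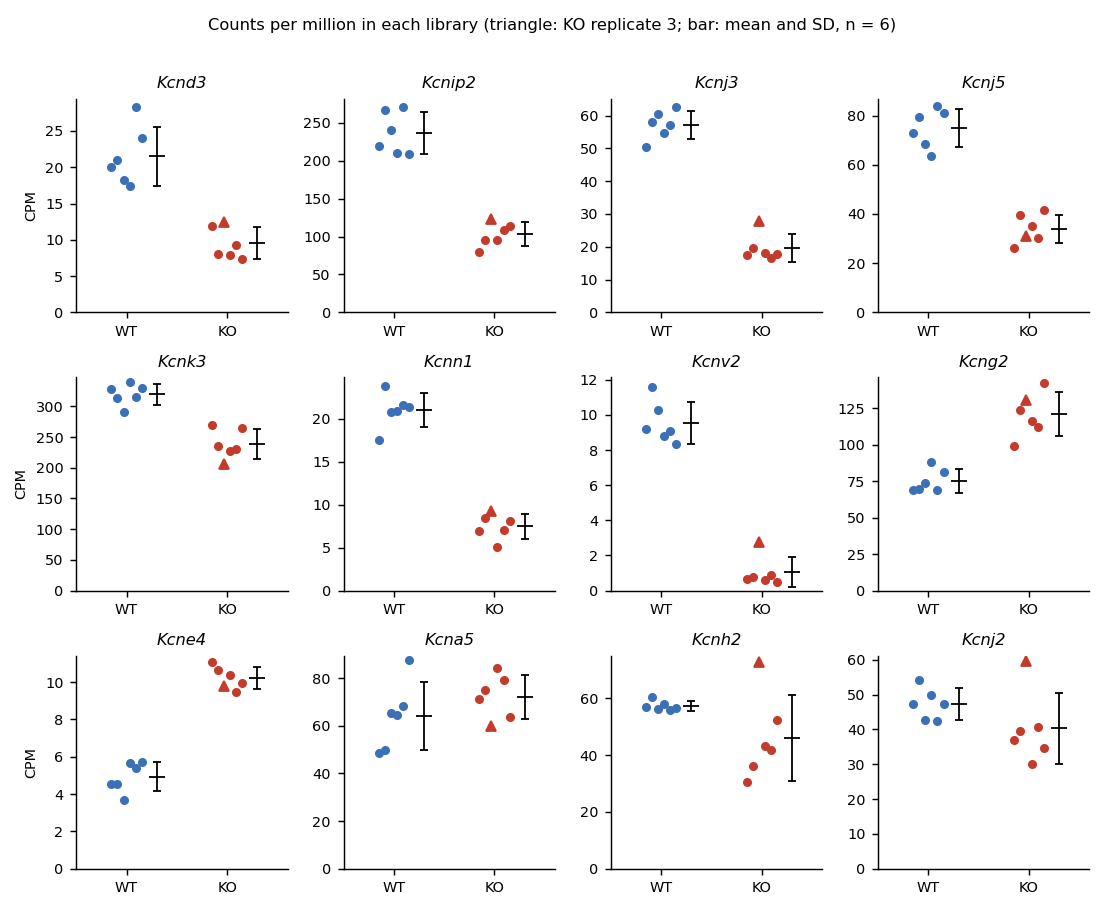
CPM (vertical axes, from 0) of 12 Kcn genes in each of the 6 WT (blue) and 6 KO (red) libraries, with the mean and SD beside them; the triangle is KO replicate 3. The groups are apart for the first 9 genes, with KO lower for Kcnd3, Kcnip2, Kcnj3, Kcnj5, Kcnk3, Kcnn1 and Kcnv2 and higher for Kcng2 and Kcne4, and overlap for Kcna5, Kcnh2 and Kcnj2, where the triangle is the highest KO point of the last 2.

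Kcna5, the pore of the rapidly activating sustained current, had 48.5, 64.9 and 87.4 CPM in WT and 59.9, 73.0 and 84.3 CPM in KO, a ratio of 1.13 with a 95% interval of 0.939 to 1.36 (adjusted p = 0.308). The ranges overlap almost throughout, and the interval leaves room for a change of less than 1.5-fold.

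Kcnh2 and Kcnq1, the pores of the rapid and slow delayed rectifier currents and long QT genes in people, did not pass in edgeR over all libraries and passed under some other settings. Kcnh2 was tight in WT, at 56.0, 56.8 and 60.5 CPM, and wide in KO, at 30.5, 42.4 and 72.9 CPM, where KO replicate 3 held the highest value and the other 5 lay below every WT library. Over all libraries its log2 fold change was -0.32 (adjusted p = 0.141), and without KO replicate 3 it was -0.50 (adjusted p = 0.00079). Kcnq1 read 21.2, 28.0 and 30.2 CPM in WT and 17.7, 22.6 and 29.5 CPM in KO, with a log2 fold change of -0.27 (adjusted p = 0.0554) that became -0.37 (adjusted p = 0.003) without the same library. Kcnh2 also passed with limma-voom (adjusted p = 0.045) and with limma on log2 FPKM (0.0458), and Kcnq1 with limma-voom (0.046), limma on log2 FPKM (0.0447), scaling by library size only (0.0431) and without WT replicate 5 (0.0156). Kcne1, the auxiliary subunit that slows Kcnq1, read 2.29 ± 1.12 CPM in WT and 3.72 ± 1.18 CPM in KO (adjusted p = 0.0459), and this call was lost in 11 of 22 alternatives.

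Kcna7, which is expressed in heart and skeletal muscle, was 1 of the 6 delayed rectifier genes that fell, from 15.9 ± 2.27 to 8.41 ± 1.63 CPM (log2 fold change -0.92, adjusted p = 1.13e-05), and no KO library reached the lowest WT library.

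Kcna1, Kcna2 and Kcna6, close relatives that form the delayed rectifiers of axons, fell together. Kcna1 read 1.91, 3.85 and 5.28 CPM in WT and 0.464, 1.08 and 1.67 CPM in KO (log2 fold change -1.83, adjusted p = 5.41e-05), and Kcna6 1.73, 2.63 and 2.92 CPM against 0.584, 0.952 and 1.35 CPM (-1.27, adjusted p = 0.00019); neither overlapped. Kcna2, the most abundant of the 3 by CPM, read 6.15, 14.1 and 18.6 CPM in WT and 3.48, 5.38 and 6.71 in KO (-1.36, adjusted p = 0.00043), and overlapped through WT replicate 6. Markers of neurons and Schwann cells were mixed. Of the 5 tested, 3 were lower (Sox10 -1.73 and Mbp -0.88 in log2 fold change, among them) and Tubb3 was higher (1.28). Over all rows tested, 25.5% were lower and 25.6% higher. Snap25 had no count in any library. The groups overlapped for each of the 5 tested. The 8 markers summed to 13.5 to 16.2 CPM in WT replicates 1 to 5, 7.11 in WT replicate 6 and 5.96 to 9.54 in KO. The WT library that was lowest for Kcna1 and Kcna2 was thus also lowest for these markers. For Kcna6 the lowest was WT replicate 3, at 1.73 CPM, beside 1.87 CPM in WT replicate 6. The part of nerve in the fall of these genes was not tested. Kcna1, Kcna5 and Kcna6 lie side by side on chromosome 6, with 75417 bases between Kcna1 and Kcna6 and 107364 between Kcna1 and Kcna5 on the C57BL/6NJ assembly of the table, and Kcna5 did not share the fall.

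Kcnj3 and Kcnj5 encode the subunits of the channel opened by acetylcholine through G proteins, best known from atrium and pacemaker tissue. Kcnj3 had 50.6, 57.5 and 62.6 CPM in WT and 16.6, 18 and 27.8 CPM in KO, a fall to 0.343 of the WT level (0.296 to 0.397, adjusted p = 1.76e-08). Kcnj5 had 63.8, 76.2 and 83.8 CPM in WT and 26.2, 33.0 and 41.4 CPM in KO, a fall to 0.452 (0.392 to 0.521, adjusted p = 3.88e-07). Both genes fell in every KO library, and their FPKM ratio overlapped between the groups (0.920 to 1.19 in WT and 0.908 to 1.88 in KO). The defining atrial genes were near 0 in both groups, with means of 0.048 CPM in WT and 0.006 in KO for Sln and 0.067 and 0.096 for Myl7; the 6 atrial markers summed to 41.0 to 49.0 CPM in WT and 34.2 to 43.3 CPM in KO, of the 3 tested Nr2f2 and Myl4 were higher (log2 fold changes 0.70 and 0.72), and Stard10 was lower (-2.06). Conduction and nodal markers summed to 38.6 to 50.4 CPM in WT and 41.9 to 58.2 CPM in KO, with 2 of 6 higher and 1, Hcn4, lower (-1.83). Over all rows tested, 25.6% were higher and 25.5% lower, and neither marker list was tested against these shares.

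Of the strong inward rectifiers of the ventricle, Kcnj12 passed in edgeR over all libraries and Kcnj2 did not. Kcnj12 rose from 16.2, 17.7 and 20.7 CPM to 20.5, 25.7 and 32.1 CPM (log2 fold change 0.51 ± 0.10 SE, adjusted p = 0.00029), with WT and KO just touching. Kcnj2, the main gene of the resting current, read 42.4, 47.4 and 54.3 CPM in WT and 30.2, 38.3 and 59.7 CPM in KO (log2 fold change -0.23, adjusted p = 0.172). As with Kcnh2, KO replicate 3 was above all WT libraries and the other 5 KO libraries were below them, and without it the log2 fold change was -0.38 (adjusted p = 0.00069). The FPKM ratio of Kcnj2 to Kcnj12 was 0.906 to 1.35 in WT and 0.480 to 0.947 in KO, which overlap. Kcnj15, an inward rectifier best known from kidney, rose from 1.25 ± 0.447 to 2.83 ± 1.09 CPM (log2 fold change 1.18, adjusted p = 0.0026).

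The channels that close when ATP is plentiful are built from a Kcnj pore and a sulfonylurea receptor. Kcnj11, the pore of the cardiomyocyte channel, fell slightly, from 49.4, 51.7 and 54.8 CPM to 38.8, 44.6 and 50.3 CPM, or to 0.855 of the WT level (0.787 to 0.928, adjusted p = 0.0049). Kcnj8, the pore best known from vascular cells, read 68.4, 73.9 and 84.9 CPM in WT and 58.5, 74.7 and 89.5 CPM in KO, a ratio of 0.995 with an interval of 0.891 to 1.11. The receptors moved more than the pores: Abcc9, which serves both, fell from 370 to 437 CPM in WT to 214 to 287 CPM in KO (log2 fold change -0.73, adjusted p = 4.91e-07), and Abcc8 rose from 21.8 to 31 CPM to 32.1 to 44.4 CPM (0.47, adjusted p = 0.0004). The FPKM ratio of Abcc9 to Abcc8 thus went from 11.8 to 15.3 in WT to 4.15 to 7.58 in KO, with no overlap. Each pore gene is the neighbour of a receptor gene, Kcnj8 of Abcc9 with 16434 bases between them and Kcnj11 of Abcc8 with 4636 bases between them. Kcnj8 did not pass while Abcc9 fell, and Kcnj11 fell while Abcc8 rose.

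Kcnk3, a two-pore channel that carries an acid-sensitive background current, was the most abundant pore-forming member, at a median of 150 FPKM in WT and 109 FPKM in KO. It had 291, 322 and 340 CPM in WT and 205, 233 and 269 CPM in KO, a fall to 0.747 of the WT level (0.684 to 0.815, adjusted p = 3.82e-05), with no overlap. It made up 36.2% ± 1.4 (SD) of the summed FPKM of the pore-forming members in WT and 33.8% ± 3.4 in KO, which overlap. Kcnk2, the stretch-sensitive two-pore channel, read 3.39 ± 0.411 CPM in WT and 3.13 ± 0.691 in KO (ratio 0.923, 0.737 to 1.16, adjusted p = 0.59), and Kcnk6 9.31 ± 1.87 and 10.6 ± 1.55 CPM (ratio 1.13, 0.947 to 1.35, adjusted p = 0.273). Kcnk13 and Kcnk5 were under 1 CPM in WT, and neither passed (adjusted p = 0.6 and 0.0555).

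Among the small-conductance calcium-activated channels, Kcnn1 fell and Kcnn3 rose. Kcnn1 fell from 17.5, 21.1 and 23.8 CPM in WT to 5.05, 7.59 and 9.24 CPM in KO, to 0.355 of the WT level (0.302 to 0.417, adjusted p = 2.62e-08), with no overlap. Kcnn3 rose from 1.92 ± 0.964 to 3.91 ± 0.803 CPM (log2 fold change 1.02, adjusted p = 0.0035), and Kcnn2, the member best known from atrial cardiomyocytes, read 9.08 ± 1.09 and 8.97 ± 1.25 CPM (ratio 0.988, 0.852 to 1.15, adjusted p = 0.912). By FPKM, the order of the family thus went from Kcnn1 (median 5.69), Kcnn2 (3.69) and Kcnn3 (0.267) in WT to Kcnn2 (3.63), Kcnn1 (2.06) and Kcnn3 (0.680) in KO. Kcnn4, the intermediate-conductance channel of blood and stromal cells, read 0.221 ± 0.189 CPM in WT and 0.659 ± 0.366 CPM in KO (adjusted p = 0.0266), with a call that was lost in 5 of 21 alternatives.

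Among the sodium-activated channels, Kcnt2 rose from 5.46, 6.98 and 8.80 CPM to 10.6, 13.3 and 13.6 CPM, or 1.78-fold (1.54 to 2.06, adjusted p = 7.14e-06), with every KO library above every WT library. Kcnt1 read 2.99 ± 1.21 CPM in WT and 3.62 ± 1.40 CPM in KO and did not pass (adjusted p = 0.466). Pericyte and smooth muscle markers were 4 higher and 1 lower of 8 (3133 to 3447 CPM in WT, 3619 to 4756 in KO). Fibroblast markers rose beside the members that went up: 8 of 8 were higher, and their sum was 1420 to 1670 CPM in WT and 2584 to 4867 CPM in KO. Their part in the rises of Kcnt2, Kcnn3, Kcnn4, Kcnj15 or Kcne4 was not tested. Of the other marker lists, 5 of 8 endothelial genes were higher and 1 lower (1600 to 1774 CPM in WT, 1786 to 2184 in KO), macrophage genes were 1 higher and 2 lower of 7 (209 to 288 and 212 to 284 CPM), and lymphocyte genes 1 higher of 6 (3.16 to 6.08 and 3.11 to 8.21 CPM). Over all rows tested, 25.6% were higher and 25.5% lower, and no marker list was tested against these shares.

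The silent subunits Kcnv2 and Kcng2 moved apart. Kcnv2 had 8.33, 9.14 and 11.6 CPM in WT and 0.505, 0.731 and 2.75 CPM in KO, a fall to 0.109 of the WT level (0.0695 to 0.171, log2 fold change -3.20, adjusted p = 2.29e-06). The highest KO value was again KO replicate 3, and the other 5 lay at or under 0.88 CPM. Kcng2 had 68.7, 71.5 and 88.5 CPM in WT and 99.2, 120 and 142 CPM in KO, a rise of 1.61-fold (1.43 to 1.80, adjusted p = 5.42e-06), also without overlap. The FPKM ratio of Kcng2 to Kcnv2 was 24.8 to 41.6 in WT and 197 to 1166 in KO.

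Kcne4, a single-pass subunit that can inhibit Kcnq1 and Kcna channels, had the smallest adjusted p of the 11 members that rose. It had 3.70, 4.99 and 5.69 CPM in WT and 9.45, 10.2 and 11 CPM in KO, a 2.07-fold rise (1.78 to 2.40, adjusted p = 5.97e-07), with every KO library above every WT library. The remaining auxiliary genes did not pass: the cytoplasmic beta subunits Kcnab1, Kcnab2 and Kcnab3, the silent subunit Kcng4, and Kcnmb1, the beta subunit of the large-conductance calcium-activated channel of smooth muscle, had log2 fold changes from -0.36 to 0.32. Kcnmb1 overlaps Kcnip1 on the other strand. No source says whether strand was used in counting, or how a read over both genes was treated, so the overlap could affect the count of Kcnmb1.

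**Figure D3:**
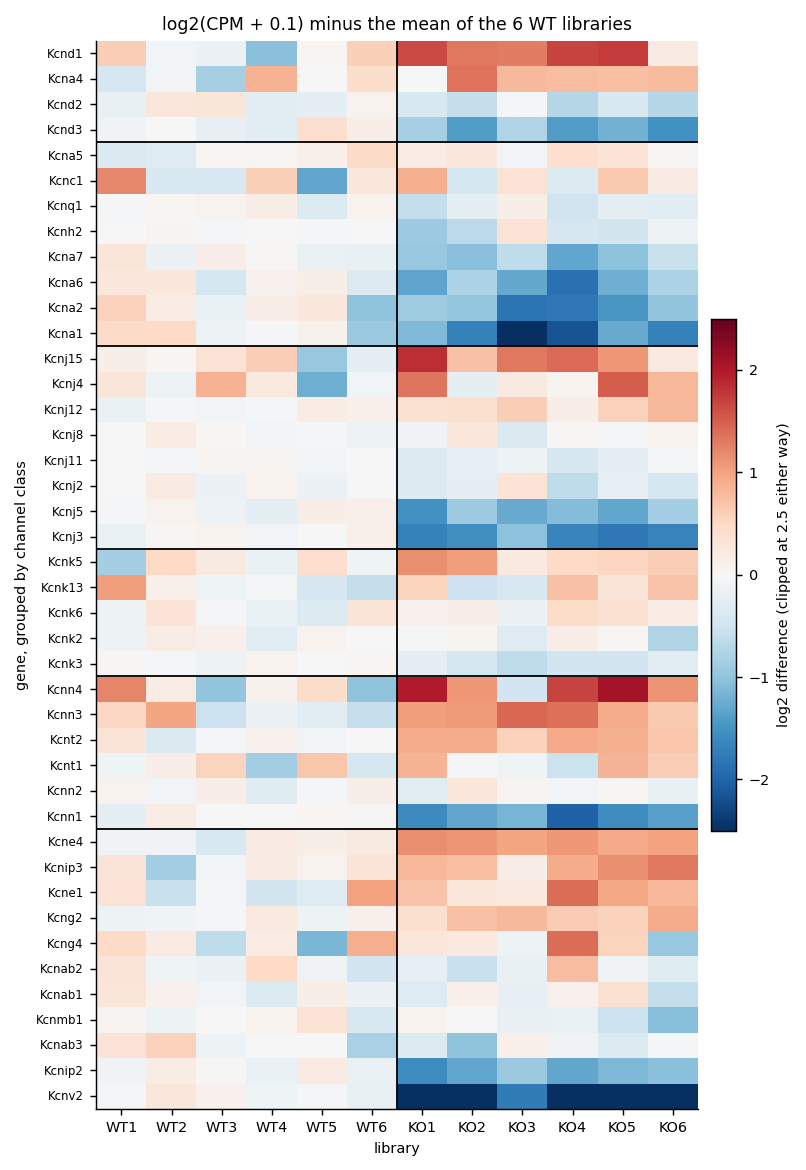
Colour gives log2(CPM + 0.1) minus the mean of the 6 WT libraries for 42 of the 45 Kcn genes (rows, split by lines into transient outward, delayed rectifier, inward rectifier, two-pore, calcium- or sodium-activated and auxiliary, from the top) in each library (columns), clipped at 2.5 either way. Kcnv2 is the darkest fall, KO3 is paler than the other KO libraries for Kcnj3 and Kcnv2 and of opposite colour for Kcnh2 and Kcnj2, and WT6 is low for Kcna1 and Kcna2.

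KO replicate 3 stood nearer to WT than the other KO libraries for many members. Each KO library was placed, on log2(CPM + 0.5), between the mean of the other 5 KO libraries (position 0) and the WT mean (position 1), over the members called when that library was left out. The median position was 0.34 for KO replicate 3 over 29 members, 20 of which lay toward WT. The others had medians of -0.203 to 0.14 over 23 to 25 members. Of these, 15 of 25 lay toward WT for KO replicate 2, 15 of 24 for KO replicate 6, and 4 to 10 for the remaining libraries. Its Sdhaf4 level, 2.25 CPM, was the lowest of all KO libraries, and its cardiomyocyte marker sum, 57040 CPM, the highest of all 12. Without it, 11 members were higher and 18 lower: Kcnh2, Kcnq1 and Kcnj2 joined the lower genes, Kcnk5 joined the higher ones (log2 fold change 0.83, adjusted p = 0.04) and Kcna4 left them (adjusted p = 0.051).

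The order of levels per length changed at the top. In WT, Kcnip2, Kcnk3, Kcng2 and Kcnj11 led with medians of 182, 150, 58.0 and 44.6 FPKM, and in KO, Kcnk3, Kcng2, Kcnip2 and Kcnj11 with 109, 98.8, 83.4 and 38.3 FPKM. Kcnq1, Kcnj8, Kcnh2 and Kcna5 followed in WT at 32.7, 30.3, 30.2 and 22.4 FPKM. By rank among the 45, Kcnv2 moved from 25 to 43 and Kcna2 from 21 to 30, while Kcnt2 moved from 20 to 13 and Kcne4 from 22 to 15. The shares of the 5 pore-forming classes in the summed FPKM overlapped between genotypes, for example 24.9% to 27.1% in WT and 23.7% to 33.1% in KO for the delayed rectifiers. Within them, Kcnj12 went from 1.66% to 2.15% in WT to 2.75% to 3.85% in KO and Kcnj3 from 3.43% to 4.16% to 1.40% to 2.28%, both without overlap.

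**Figure D4:**
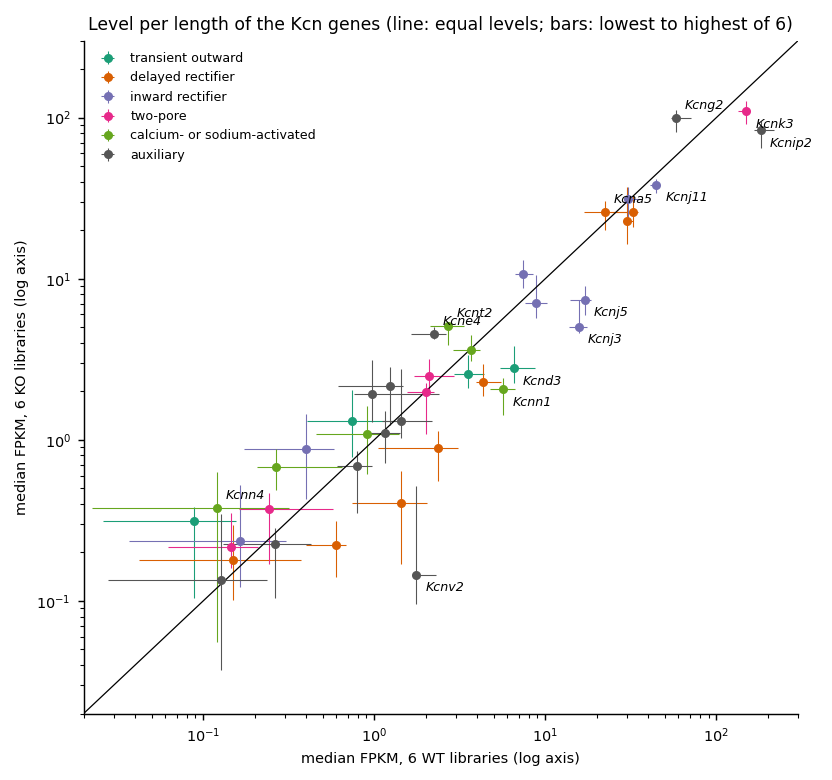
Median FPKM of 42 of the 45 Kcn genes over the 6 WT libraries (horizontal, log axis) and the 6 KO libraries (vertical, log axis), coloured by class, with bars from the lowest to the highest library; the line marks equal levels. Kcnip2 and Kcnk3 are the highest in WT at 182 and 150 FPKM, Kcnip2, Kcnj3, Kcnj5, Kcnn1 and Kcnv2 lie below the line, and Kcng2, Kcne4 and Kcnt2 lie above it.

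Genes that belong to the same currents but do not carry a Kcn name were read in the same fit. Of 25 listed, 23 were found in the table and 18 tested. Of those, 5 were higher (27.8%, against 25.6% of all rows) and 8 lower (44.4%, against 25.5%). The median log2 fold change was -0.02. The groups did not overlap for 44.4% of the 18, against 30.1% of all rows. These differences were not tested. Lrrc52, a gamma subunit of large-conductance potassium channels, was the only one past both thresholds, from 0.217 to 1.71 CPM in WT to 1.91 to 3.98 CPM in KO (log2 fold change 1.89 ± 0.38 SE, adjusted p = 0.00052). Nedd4l, a ubiquitin ligase that removes channels from the membrane, and Abcb8 and Ccdc51, the parts of the mitochondrial ATP-sensitive channel, were lower in every KO library (log2 fold changes -0.54, -0.50 and -0.54). Cav3, the muscle caveolin that gathers channels in caveolae, was higher in every KO library (0.46). The transcription factors Irx3, Irx4 and Irx5, known for the gradient of Kcnd2 across the ventricular wall, did not pass (adjusted p = 0.102, 0.8 and 0.674). Dpp10, a transmembrane partner of the Kcnd channels, had no count in any library.

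Promoter sequence was at hand for 30 members in RefSeq's table (GRCm38.p6, 250 bases before to 50 after the start). The core of the hypoxia response element, ACGTG on either strand, was looked for because the study treats hypoxia signalling in these hearts; it was present in 7 of 30 members (23.3%) and in 21.8% of 27025 genes. It was found in 1 of 9 members called lower, 2 of 8 called higher and 4 of 13 not passed. The promoter of Kcne4, which rose in every KO library, holds 1 stretch that reads the same on both strands and so gives 2 overlapping matches. It is printed with them in capitals. The promoter of Kcnip2, which among the members that fell had the highest median FPKM in WT, holds none. These promoters were picked by name, and a link of the motif with direction was not tested. A match is a stretch of letters, not a bound site.
Kcne4 (chr1:78816661-78816960, plus strand): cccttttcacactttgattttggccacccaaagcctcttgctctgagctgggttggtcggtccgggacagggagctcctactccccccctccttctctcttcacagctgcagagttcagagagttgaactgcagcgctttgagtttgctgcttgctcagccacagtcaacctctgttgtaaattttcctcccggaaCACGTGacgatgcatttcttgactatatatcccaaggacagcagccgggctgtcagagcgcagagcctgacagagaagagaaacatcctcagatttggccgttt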

How the data were processed

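RNA of 12 ventricular wall samples was enriched for mRNA on poly-T beads and sequenced. The authors counted reads per gene with HTSeq and deposited raw counts and, computed from them, FPKM per library. The authors also deposited group means of FPKM, group means of scaled counts (a signal), and log2 fold changes and p-values of their DESeq comparison, which were not used. The submitters' processing notes name HISAT2 2.0.5 and mm10, whereas the gene identifiers and coordinates belong to the C57BL/6NJ assembly, and the strand setting is not stated. Sequences came from GENCODE M21 and RefSeq (GRCm38) and were matched by symbol. In 19 members the span overlaps another row, which could affect their counts.

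Counts were fitted across the whole table in R 4.3.3 with edgeR 4.0.16 (filterByExpr, TMM, quasi-likelihood test with robust dispersions) with CPM taken on TMM-scaled library totals, and Benjamini-Hochberg adjustment over 17155 rows, KO against WT, 6 libraries each. Intervals are the log2 fold change ± 1.96 SE, turned back into a ratio, at a nominal 95%. The multiplier is that of a normal distribution, whereas the quasi-likelihood test uses an F distribution, so the intervals can be too narrow. On simulated counts for 16954 genes with 200 changed, 193 were recovered with 11 false calls. The changed genes all had a mean over 5 CPM and a log2 change of 1. The simulation thus does not cover lower genes, smaller changes, a deviating library or a table in which 51.1% of rows are called. Replicates differed by more than counting noise (chi-square of 7.41 to 52.6 per degree of freedom), and none were merged. DESeq2 1.42.0, limma 3.58.1 (voom, and log2 FPKM with a pseudocount of 0.1), other scalings and filters, glmTreat, a replicate block and each library left out were alternatives. Members, channel classes, partner and marker lists and tests were chosen with earlier results of these data known. Genes are named if they belong to the canonical repolarization list, pass both thresholds of the methods, or are 1 of the 2 largest changes in their class with at least 1 CPM; partners are named if called at 0.05 with a log2 change over 1, and others were chosen after their values were seen. Some genes that are counted among the members and markers are not reported here by name, and 3 members are left out of the figures. Ank2, Ank3 and the markers Actn2 and Lyz2 were not analysed here.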

Additional observations from a re-analysis of the deposited data

Results flagged for a closer look

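Over 72 groups of 6 libraries, 4 had a lowest or highest library whose gap to its neighbour took up more of the group's range than Dixon's 95% limit, and chance gives about 3.6. Of those, 3 were KO replicate 3. It read 59.7 CPM for Kcnj2, where the other KO libraries lay between 30.2 and 40.8 and the WT mean was 47.4. It read 27.8 CPM for Kcnj3, beside 16.6 to 19.6 in the others and a WT mean of 57.3. For Kcnv2 it read 2.75 CPM, beside 0.505 to 0.88 and a WT mean of 9.54. In each case the library lay toward WT or beyond. The remaining one was Sdhaf4 in KO replicate 1, at 2.73 CPM beside 2.25 to 2.41 in the other KO libraries.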

How the results depend on the processing

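The 15 members lower in KO were 15 to 18 when 1 library was left out (18 without KO replicate 3) and 10 to 17 under the other settings. The 11 members higher were 8 to 11 with 1 library left out (8 without WT replicate 3 or KO replicate 5) and 9 to 12 otherwise, apart from 5 with glmTreat against a log2 fold change of 0.5 and 4 with the study's thresholds, which call fewer genes by construction. Sdhaf4 kept a log2 fold change between -3.51 and -3.32. The median over the members was -0.13 to -0.01 with 1 library left out, and -0.22 with the filter of at least 1 CPM in 6 libraries, which tests fewer genes. Among the values that changed sign were Kcnj8, at -0.064 to 0.049 with 1 library left out, and the share of the inward rectifiers, 0.35 percentage points higher in KO by FPKM and lower by CPM (-1.51). With the filter of at least 1 CPM in 6 libraries the median went from 0.12 to -0.47 in the transient outward and from 0.18 to -0.11 in the two-pore class, and that of the auxiliary subunits, -0.07, became 0.047, 0.021 and 0.019 without WT replicate 4, KO replicate 2 or KO replicate 6. Low members limit precision: 8 had a WT mean under 1 CPM.

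The shared replicate numbers gave no sign of pairing: same-numbered libraries correlated at -0.162 to 0.024 in their deviations, and 1 of 6 correlated best with its own number. With the replicate number as a block, 11 members were higher and 16 lower, the median was -0.09, and Sdhaf4 had a log2 fold change of -3.36. Kcnq1 passed with the block (adjusted p = 0.0463).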
